A study of Mus musculus with 4 samples.

Results

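Cells of the mouse spinal cord that carried RNA of the monocyte antigen Ly6C at 3 days after spinal cord injury (SCI), referred to as days post-injury (dpi), were examined in a droplet single-cell RNA-seq library. A cell was a member if it held at least 2 unique molecular identifiers (UMIs, each one captured RNA molecule) of Ly6c2 and at least 2 of Plac8, and at least 1 of Csf1r or Fn1. It also had fewer than 3 of the 6 microglia genes Tmem119, P2ry12, Sall1, Gpr34, Olfml3 and Slc2a5, and no UMI of Cd3e, Cd79a, Klrb1c, Ccr9 or Cxcr2, and the rule capped the level of 1 further gene. The members were thus chosen by their measured levels of these genes. Of the 9528 cells of the library that passed a filter of 600 or more genes and mitochondrial UMIs up to 10%, 239 were members, which was 2.51% (95% exact Clopper-Pearson interval 2.20% to 2.84%), and the 4 libraries of the series held 28346 such cells. They are called Ly6c2-positive cells here. For comparison, 3178 cells of the same library with no UMI of Ly6c2 and at least 1 of Csf1r were taken. These met the same limits on microglia genes and on the 5 barred genes, without the cap on the further gene, and are called Ly6c2-negative cells.

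CD45-positive cells were sorted from cord segments around a contusion at thoracic level T10, or around the same level of sham animals, which had the laminectomy without the contusion. The mice were C57BL/6 animals of both sexes aged 3 months, and how many animals each library held is not stated in the labels. The 4 libraries were sham cells dissociated by the standard protocol, sham cells dissociated with ActD (actinomycin D, which blocks transcription and so limits gene induction on the bench), and cells at 3 dpi and at 14 dpi, both dissociated with ActD. All mice were given flunixin, ceftiofur and saline after surgery. With 1 library per condition no difference between conditions could be tested. Levels are UMIs summed over the cells of a group per 1000000 UMIs (CPM), intervals are 95% and cover counting error only, and ratios are log2 ratios of CPM.

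Classical monocytes are made in the bone marrow and carry the surface antigen Ly6C. They enter injured tissue through the chemokine receptor CCR2, and there they can lose Ly6C and take on genes of macrophages, the phagocytes that clear myelin and dead cells. Cells at different points of that course are thus known to coexist in a lesion.

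The measured values that chose the members are given as a description. Ly6c2 had a median of 4 UMIs per member and a range of 2 to 44, and Plac8, a small cysteine-rich protein of monocytes, had a median of 11 and a range of 2 to 58. Csf1r, the receptor of the macrophage growth factor CSF1, and Fn1, fibronectin, were both detected in 195 members, Csf1r without Fn1 in 4 and Fn1 without Csf1r in 40. None of the 6 microglia genes was found in 112 members, 1 in 91 and 2 in 36. Ly6c1, a near-identical neighbour of Ly6c2, held 7 UMIs in the members, and reads that fit both genes cannot be told apart. Members thus sat close to the lower limit of the rule for Ly6c2, where 53 had exactly 2 UMIs. For Plac8, 23 had exactly 2 UMIs. Cells of the same rule at 14 dpi had medians of 27 UMIs of Ly6c2 and 40 of Plac8.

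Cells on both sides of the limit carried monocyte genes. The 53 members with exactly 2 UMIs of Ly6c2 had 376 CPM of Hp and 2758 CPM of Chil3, and 80 cells just outside with 1 UMI had 306 and 2021 CPM. Ccr2 was at 359 CPM inside and 229 outside, and Apoe at 10604 and 9657 CPM. Other genes differed more. H2-Ab1, a chain of MHC class II, was at 960 CPM inside and 2556 outside, and Col1a1, a collagen chain of fibroblasts, was at 0 inside and 569 CPM outside. These are sums that a few cells can carry, and the number of cells with Col1a1 is not given. At the Plac8 limit, 6 of 23 members with 2 UMIs and 12 of 35 cells with 1 UMI had at least 5 of 20 T and NK cell markers.

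Markers that the rule did not use fitted the label of monocyte-like cells in most members. Hp, haptoglobin, and Chil3, a chitinase-like protein of monocytes, were both detected in 178 of 239 members (74.5%), Hp alone in 21, Chil3 alone in 26, and neither in 14. Both were found in 988 of the 3178 Ly6c2-negative cells (31.1%) and in 13 of 331 T cells of the library (3.93%), where such UMIs can come from free RNA in the droplets. Depth differed between these cells, with medians of 8329, 12143 and 4161 UMIs, and 2595 in 98 B cells. After each cell was thinned to 1000 UMIs, which left out 2 Ly6c2-negative cells, Hp was found in 50.2% of members (43.7% to 56.7%), 6.74% of Ly6c2-negative cells, 1.51% of T cells and 2.04% of B cells, and the unthinned shares were 83.3%, 34.6%, 8.46% and 6.12%. Chil3 was found in 66.9% of members after thinning, 32.2% of Ly6c2-negative cells, 16.9% of T cells and 21.4% of B cells, against 85.4%, 81.3%, 45.9% and 35.7% before it. Neutrophils also carry both genes (1013 and 3272 CPM in 503 neutrophils of the library). Vcan (9.97 CPM in neutrophils and 290 in members) and Ccr2 (39.2 and 401 CPM) were low there.

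Some members carried genes of other cell types. At least 3 of the 5 primary granule genes Elane, Mpo, Prtn3, Ctsg and Ms4a3, which mark granulocyte and monocyte progenitors, were found in 9 members (3.77%, 1.74% to 7.03%), and 7 of them had all 5. At least 5 of the 20 T and NK cell markers were found in 13 members (5.44%, 2.93% to 9.12%). No member had over 1% of its UMIs from the neutrophil granule genes Camp, Ngp and Ltf (0 of 239, upper bound 1.53%). The other 217 members are called core members, and results that rest on the 22 cells are given without them. Mpo had 903 UMIs in the members, all of them in the 9 granule gene cells, and Elane had 1010, of which 99.0% were there. Of the UMIs of Nkg7, a cytotoxic granule protein, 43.2% were in the 9 cells and 52.3% in the 13 cells. The 20 T and NK cell markers summed to 545 CPM in all members, 165 CPM in core members and 208 CPM in Ly6c2-negative cells. Their most abundant gene in core members was Il7r (82.4 CPM), and 3 were at 0. The 12 progenitor markers summed to 1605, 111 and 107 CPM. In core members Prtn3 led them with 58.7 CPM and 4 were at 0. The 20 neutrophil markers summed to 5795, 2763 and 1213 CPM, S100a8 led, with 1133 CPM in core members, and Ly6g was at 0. B cell markers summed to 80.6 CPM in members and 50.7 in Ly6c2-negative cells, Ighm led, and 6 of 12 were at 0.

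**Figure D1:**
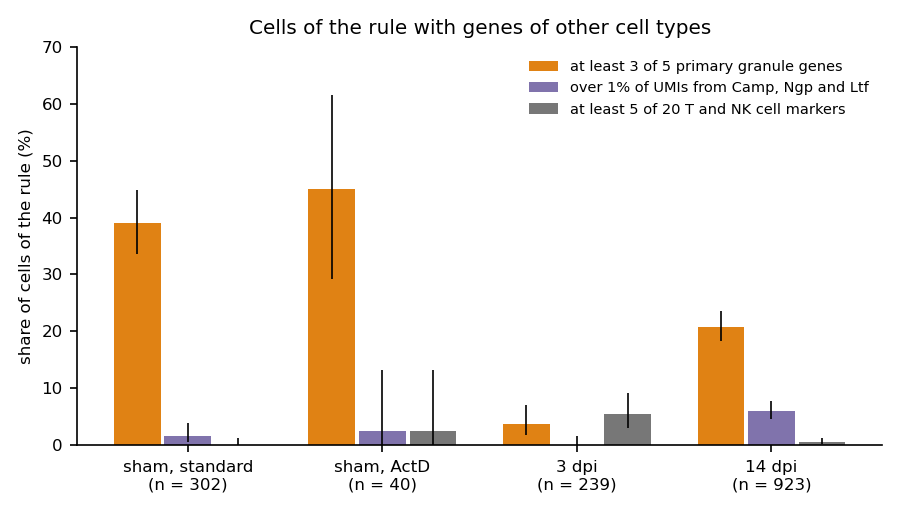
Share of the cells of the rule with genes of other cell types (bars, percent of the cells of the rule; lines, 95% exact intervals) in the 4 libraries. At 3 dpi 3.77% of members had primary granule genes, against 39.1% in the standard sham, 45% in the ActD sham and 20.8% at 14 dpi.

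No member shared a barcode with a passing cell of another library, while 17, 8 and 30 of the 9528 passing barcodes at 3 dpi also passed in the standard sham, ActD sham and 14 dpi libraries. Doublets were scored and not removed. Among the 726 cells with the highest doublet scores, which were 7.62% of the library, were 13 members (5.44%, 2.93% to 9.12%) and 155 Ly6c2-negative cells (4.88%). Genes of the Y chromosome and Xist assigned 90 members to males and 68 to females, so 57.0% of those assigned were male (48.9% to 64.8%), against 64.7% (62.6% to 66.8%) of Ly6c2-negative cells.

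Compared with Ly6c2-negative cells, the members had higher RNA of most genes of classical monocytes and lower RNA of many genes of mature macrophages. Of 8704 genes with at least 200 UMIs in both groups of cells together, 381 (4.38%) were at least 2-fold higher in members and 470 (5.4%) at least 2-fold lower. Core members gave 363 of 8679 higher (4.18%) and 567 lower (6.53%). The median ratio over all genes was 0.03. Where each cell counted alike, with the mean of the cells' own CPM in place of the sums, 267 genes were higher and 653 lower. With members taken from 1 UMI of Ly6c2 and Plac8, the balance turned, with 264 higher and 131 lower (3.00% and 1.49% of 8809). These ratios describe cells of 1 library, and the groups were set by Ly6c2, which varies together with other monocyte genes.

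**Figure D2:**
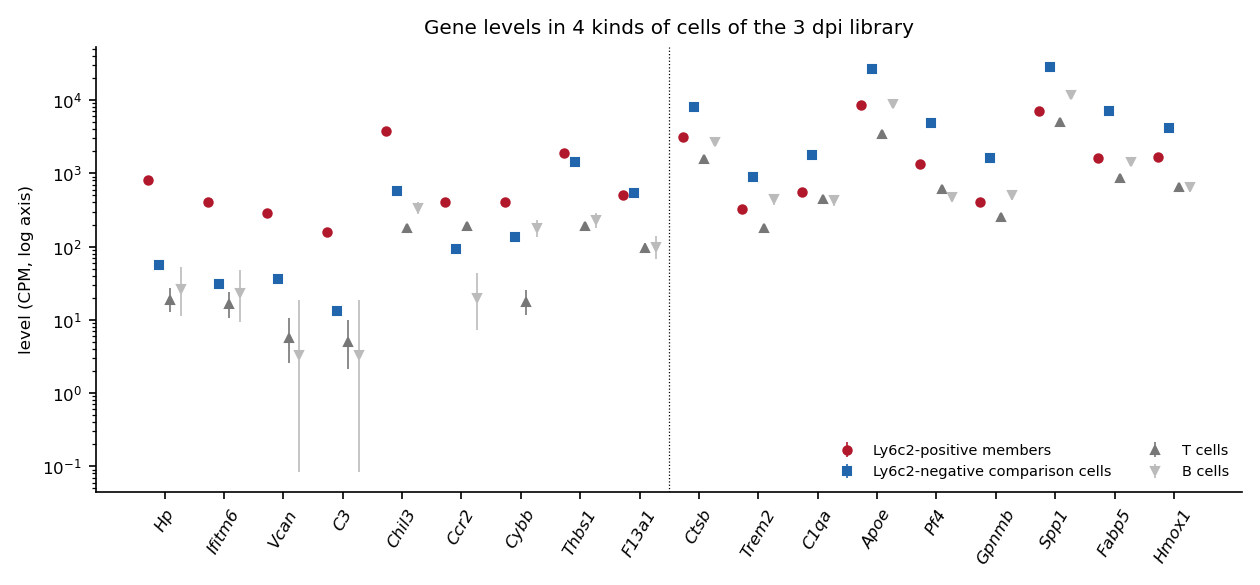
Levels in CPM (log axis, with 95% exact Poisson intervals) of named genes in members, Ly6c2-negative cells, T cells and B cells at 3 dpi. Hp stands at 808 CPM in members and 55.6 CPM in Ly6c2-negative cells, and Apoe at 8503 and 26235 CPM.

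Of 23 classical monocyte genes with at least 200 UMIs, 15 were at least 2-fold higher in members and 0 were 2-fold lower, against 4.38% and 5.4% of all genes, and the median over the 25 genes of the list in the files was 1.40 (1.43 in core members). Hp was at 808 CPM in members (772 to 846) and 55.6 in Ly6c2-negative cells, a ratio of 3.86 (3.77 to 3.95). Vcan, the matrix proteoglycan versican, was at 290 and 35.7 CPM (3.02, 2.89 to 3.16), with 5.63 CPM in T cells and 3.30 in B cells. Chil3 was at 3829 and 581 CPM (2.72, 2.69 to 2.76), and Ccr2 at 401 and 91.5 CPM (2.13, 2.03 to 2.24). Cd177, a surface protein of neutrophils and some monocytes, was at 56.9 and 1.83 CPM (4.96, 4.54 to 5.39), was found in 70 members and had 7.69% of its UMIs in the 9 granule gene cells. Members of the interferon-induced transmembrane family were higher as well, Ifitm6 at 405 and 30.9 CPM (3.72), Ifitm3 at 3526 and 911 CPM (1.95) and Ifitm2 at 2083 and 735 CPM (1.50).

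Other genes known from monocytes hardly set the groups apart. Lyz2, lysozyme, was at 17166 CPM in members and 19257 in Ly6c2-negative cells (-0.17, -0.18 to -0.15), F13a1, a chain of coagulation factor XIII, at 504 and 541 CPM (-0.10, -0.19 to -0.02), and Thbs1, thrombospondin 1, at 1866 and 1433 CPM (0.38, 0.34 to 0.43). The sign of each of these 3 ratios changed with the choice of cells or of scaling. Levels in lymphocytes bear on how much free RNA adds. Of the 23 classical monocyte genes, 21 were higher in members than in both T and B cells, 19 of them by over 2-fold. Many other genes were too. Of 1033 genes compared in the low, middle and high parts of the members described below, 679, 677 and 678 were above both. By over 2-fold, 187, 174 and 175 were.

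Of 24 macrophage maturation genes with at least 200 UMIs, 14 were at least 2-fold lower in members and 0 were 2-fold higher (background 5.4% and 4.38%), and the list median was -1.15 (-1.12 in core members). Apoe, apolipoprotein E, was at 8503 CPM in members and 26235 in Ly6c2-negative cells (-1.63, -1.65 to -1.60). Gpnmb, a glycoprotein of lipid-laden phagocytes, was at 404 and 1606 CPM (-1.99, -2.09 to -1.90), and C1qa, a chain of complement C1q, at 556 and 1806 CPM (-1.70, -1.78 to -1.62). The lysosomal protease Ctsd was at 3386 and 10476 CPM (-1.63), Ctsb at 3137 and 7975 (-1.35), and the lipid receptor Trem2 at 327 and 888 CPM (-1.44). Pf4, platelet factor 4, a chemokine that some macrophages also make, was at 1351 and 4789 CPM (-1.83, -1.88 to -1.77). Some genes of the list differed less, such as Adgre1, which encodes the antigen F4/80, at 97.6 and 126 CPM (-0.37, -0.57 to -0.18).

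Much of the macrophage RNA in members was at the level found in lymphocytes. Apoe was at 3482 CPM in T cells and 8895 in B cells, and C1qa at 453 and 432 CPM. After thinning to 1000 UMIs, C1qa was found in 33.9% of members, 39.0% of T cells and 33.7% of B cells, and Pf4 in 24.7%, 34.4% and 36.7%. Gpnmb was found in 22.6% of members (17.4% to 28.4%), 19.6% of T cells and 20.4% of B cells. The unthinned shares for C1qa were 92.9%, 87.3% and 73.5%, for Pf4 90.0%, 83.1% and 71.4%, and for Gpnmb 74.5%, 58.9% and 49.0%. The thinned shares in members lay below those of lymphocytes or within counting error of them and are not read as expression. The unthinned shares were higher in members, whose cells were also deeper. By summed CPM, however, Pf4 was higher in members (1351 CPM) than in T and B cells, whose levels are given with the parts of the members below. Free RNA itself was not measured, since no barcodes of empty droplets were given, and T and B cell levels differed for some genes. In Ly6c2-negative cells the same genes were found in 58.6%, 63.7% and 46.9% after thinning. Of the 24 genes, 14 were higher in members than in both T and B cells, and 3 of them by over 2-fold, whereas 18 exceeded both by over 2-fold in Ly6c2-negative cells. Being above both lymphocyte levels was common among all genes as well, with the counts given above for the parts of the members.

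**Figure D3:**
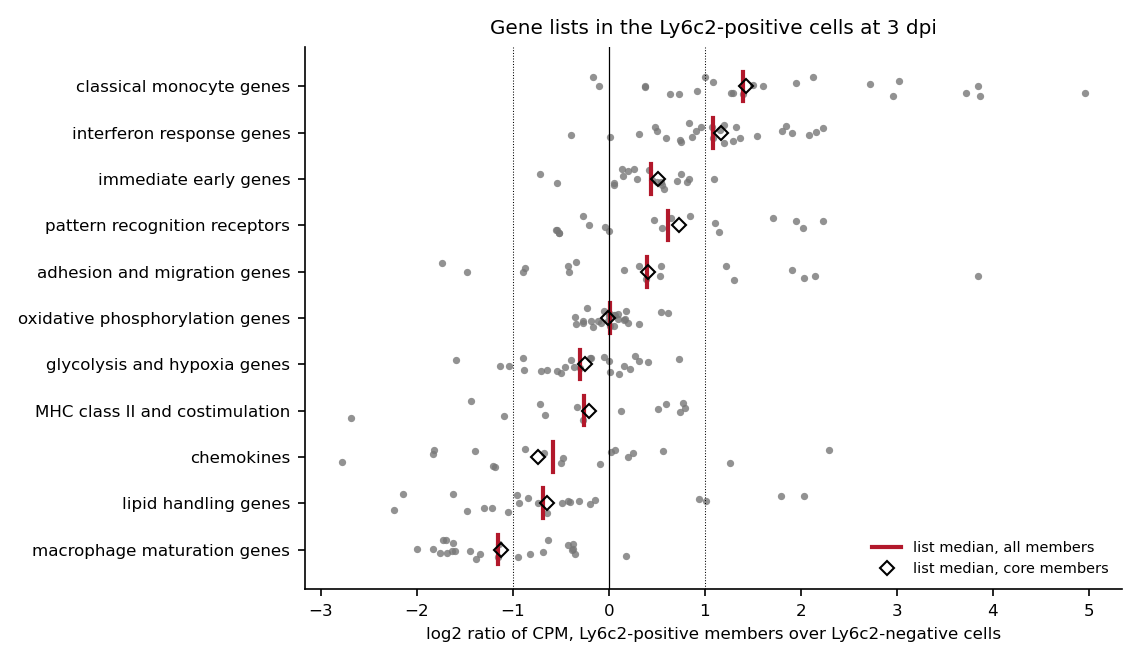
Log2 ratio of CPM of members over Ly6c2-negative cells for the genes of 11 lists (dots, 1 per gene), with the list median in all members (red bars) and in core members (diamonds). Classical monocyte genes lie to the right with a median of 1.40, macrophage maturation genes to the left with -1.15, and interferon response genes at 1.09.

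Interferon response genes were mostly higher in members than in Ly6c2-negative cells. Type I interferons act through transcription factors that bind elements of repeated TTTC or GAAA blocks. Of 27 such genes with at least 200 UMIs, 15 were at least 2-fold higher in members and 0 were 2-fold lower (background 4.38% and 5.4%), and the median over 30 genes was 1.09 (1.17 in core members). Slfn1, a Schlafen protein of resting leukocytes, was at 73.1 and 15.6 CPM (2.23, 1.97 to 2.47), the nucleic acid sensor Zbp1 at 118 and 26.5 CPM (2.15, 1.96 to 2.35), and the GTPase Ifi47 at 45.5 and 10.7 CPM (2.09, 1.77 to 2.40). Irf7, which amplifies interferon production, was at 75.7 and 21.0 CPM (1.85, 1.60 to 2.08), Isg15, a ubiquitin-like modifier, at 87.6 and 38.1 CPM (1.20, 0.98 to 1.41), and Ly6e at 1064 and 412 CPM (1.37). Bst2, which tethers viruses to the cell surface, was lower, with 177 and 233 CPM (-0.40, -0.54 to -0.25). Ifit1 was at 10.9 and 10.8 CPM (0.02, -0.63 to 0.60). T cells of the library also carried many of these RNAs, with 118 CPM of Isg15, 162 of Slfn1 and 55.1 of Irf7. Only 12 of the 27 were higher in members than in both T and B cells, and 2 of them by over 2-fold. The counts over all genes, for the parts of the members, are given above with the classical monocyte genes.

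The promoters of a gene with the sequence element and of the gene with the highest ratio are shown because they differ in it. Each is the 250 bases before the start of the gene on its own strand, from RefSeq on GRCm38.p6. The searched motifs were TTTCNNTTTC and GAAANNGAAA, which are the reverse complement of each other and were allowed to overlap, and capitals mark the matches.
Isg15, minus strand, chr4:156200819-156201068: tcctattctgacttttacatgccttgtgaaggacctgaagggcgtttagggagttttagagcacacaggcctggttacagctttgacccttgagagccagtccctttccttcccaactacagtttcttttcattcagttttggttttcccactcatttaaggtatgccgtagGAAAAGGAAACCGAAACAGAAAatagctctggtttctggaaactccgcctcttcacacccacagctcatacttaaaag
Slfn1, plus strand, chr11:83116570-83116819: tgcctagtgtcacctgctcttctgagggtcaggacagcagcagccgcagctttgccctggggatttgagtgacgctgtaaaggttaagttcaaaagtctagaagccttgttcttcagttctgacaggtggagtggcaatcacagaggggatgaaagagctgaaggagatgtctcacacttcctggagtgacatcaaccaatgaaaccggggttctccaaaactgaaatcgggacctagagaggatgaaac
Isg15 held 3 overlapping matches, which began 78 bases before the start, and Slfn1 held none. Of the 21 interferon genes with a promoter in the table, 10 had a match (47.6%), against 936 of 27025 genes (3.46%). Irf7 and Ifi47, with high ratios, also had none, whereas Bst2 and Ifit1 had 2 each. A match is only a description of these letters.

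Receptors and enzymes of host defence were partly higher in members. Of 18 pattern recognition receptor genes with at least 200 UMIs, 6 were at least 2-fold higher and 0 lower (list median 0.62, background 4.38% and 5.4%). The C-type lectin receptors Clec4a3 (149 and 36.7 CPM, 2.02), Clec4a1 (109 and 28.2 CPM, 1.95) and Clec12a (85.4 and 26.1 CPM, 1.71) and the activating receptor Trem3 (38.1 and 8.12 CPM, 2.23) led, and each was higher in members than in T and B cells. C3, the central complement protein, was at 156 CPM in members (140 to 173), 13.1 in Ly6c2-negative cells, 5.01 in T cells and 3.30 in B cells, a ratio of 3.57 (3.37 to 3.77). Cybb, a subunit of the NADPH oxidase, was at 401 and 135 CPM (1.57, 1.47 to 1.68). Lcn2, which binds bacterial iron carriers, was at 237 and 17.0 CPM (3.80, 3.64 to 3.97), found in 107 members, and 9.78% of its UMIs were in the 9 granule gene cells.

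Of 18 genes of adhesion and migration, 6 were at least 2-fold higher and 2 lower (median 0.40, background 4.38% and 5.4%). The integrin chain Itgal was at 81.4 and 18.3 CPM (2.15, 1.91 to 2.39), the hyaluronan receptor Cd44 at 508 and 205 CPM (1.31, 1.22 to 1.40), and Itga4 at 86.3 and 37.0 CPM (1.22). T cells had more Itgal (229 CPM) and Itga4 (317 CPM) than members, but less Cd44 (139 CPM). The laminin receptor chain Itga6 was lower in members, at 31.1 and 104 CPM (-1.74, -2.10 to -1.40), as was the tetraspanin Cd9 (197 and 550 CPM, -1.48).

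Secreted signals did not share 1 direction. Of 16 cytokine and growth factor genes, 4 were at least 2-fold higher in members and 3 lower (median 0.23), and of 18 chemokine genes 2 and 6 (median -0.58), against 4.38% and 5.4% of all genes. Il1b, the inflammatory cytokine, was at 960 and 575 CPM (0.74, 0.68 to 0.80), its receptor antagonist Il1rn at 104 and 37.1 CPM (1.48, 1.28 to 1.68), and oncostatin M, Osm, at 290 and 115 CPM (1.33, 1.21 to 1.45). Against Ly6c2-negative cells with none of the 6 microglia genes, the Il1b ratio was -0.47. Neutrophils of the library had 10551 CPM of Il1b, and T cells 274. The monocyte attractant Ccl2 was at 939 and 816 CPM (0.20, 0.14 to 0.26), the neutrophil attractant Cxcl2 at 1968 and 1875 CPM (0.07, 0.03 to 0.11), Ccl7 at 274 and 722 CPM (-1.40) and Cxcl14 at 14.0 and 96.1 CPM (-2.78, -3.33 to -2.28).

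Metabolic genes are given against the background of 4.38% of all genes higher and 5.4% lower. Of 26 oxidative phosphorylation genes, 0 were at least 2-fold apart in either direction (median 0.01). Of 25 glycolysis and hypoxia genes, 0 were higher and 3 lower (median -0.30), with Gapdh at 2092 and 2956 CPM (-0.50). Lipid handling genes had 3 higher and 7 lower of 22 (median -0.68). Fabp5, a fatty acid carrier, was at 1612 and 7135 CPM (-2.15, -2.19 to -2.10), whereas Dgat2, an enzyme of triglyceride synthesis, was at 18.8 and 4.60 CPM (2.03, 1.52 to 2.52). Of 16 heme and iron genes, 3 were at least 2-fold higher and 4 lower (median -0.14). Heme oxygenase Hmox1 was at 1688 and 4129 CPM (-1.29), and the ferritin chains Fth1 at 12963 and 26242 CPM (-1.02) and Ftl1 at 12162 and 26613 CPM (-1.13). Of 21 matrix genes, 3 were higher and 8 lower (median -0.87). Spp1, osteopontin, was at 7148 and 28026 CPM (-1.97), with 5064 CPM in T cells and 11838 in B cells. The metalloprotease Mmp19 was at 130 and 33.9 CPM (1.94, 1.75 to 2.12).

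Genes of antigen presentation were mostly within 2-fold. None of 13 genes of MHC class II and costimulation was at least 2-fold higher in members and 3 were lower (median -0.26, background 4.38% and 5.4%), with H2-Ab1 at 444 and 704 CPM (-0.66) and H2-Aa at 457 and 749 CPM (-0.71). The sign of the H2-Ab1 ratio changed with the choice of cells, to 0.27 with members taken from 1 UMI of Ly6c2 and Plac8. H2-Ab1 was at 1595 CPM in B cells. The costimulatory receptor Cd86 was at 118 and 69.3 CPM (0.77, 0.58 to 0.95).

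Among transcription factors, 4 of 28 were at least 2-fold higher and 1 lower (median 0.26), the latter no more than the 5.4% of all genes (4.38% were higher). Cebpb, a factor of monocyte activation, was at 996 and 530 CPM (0.91), Fosl2 at 122 and 48.8 CPM (1.33), Runx3 at 130 and 59.0 CPM (1.14, with 181 CPM in T cells) and Mitf, a factor of lysosome genes, at 8.76 and 29.1 CPM (-1.73, -2.45 to -1.10). Of 20 immediate early genes, which dissociation can induce, 1 was 2-fold higher, near the background of 4.38%, and the list median was 0.44. It was Btg2, at 534 and 250 CPM (1.10). Fos was at 1654 and 1350 CPM (0.29).

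Beyond the lists, 5 of the 15 genes with the highest ratios were Elane, Mpo, Ctsg, Camp and Prtn3, which rested on the 9 granule gene cells. Without the 22 cells Prtn3 had a ratio of 2.19, Elane 1.28, and Mpo was at 0. Serpinb1a, a protease inhibitor, had 71.9% of its UMIs there and went from 3.58 to 1.82. Others held in core members. Dmkn, dermokine, was at 111 and 4.07 CPM (4.77, 4.48 to 5.05, 4.67 in core members) and was found in 79 members, and Wfdc21 at 279 and 15.6 CPM (4.16, 3.69 in core members) in 85. Cd7, an antigen of T and NK cells and of some progenitors, had 181 UMIs in 26 members at a ratio of 3.84 (3.95 in core members), and 2.76% of them were in the 13 cells with T and NK cell markers. Nkg7 went from 3.84 to -0.47 in core members. Apart from Cxcl14, the 15 lowest ratios belonged to genes at 0 to 4 UMIs in members, of which several mark stromal and neural cells. Col1a1 had 0 UMIs against 288, Dcn, decorin, 3 against 640 (-3.55, -5.84 to -2.00), and the myelin gene Mobp 2 against 401 (-3.46, -6.51 to -1.60). With members taken from 1 UMI of Ly6c2 and Plac8, Col1a1 and Dcn were higher in members.

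Members differed among themselves along Ly6c2. Ranked by Ly6c2 CPM, they were cut into parts of 80, 80 and 79 cells (56.8 to 393, 394 to 784 and 797 to 3823 CPM), with medians of 9620, 8054 and 7749 UMIs. Ly6c2 is a gene of the rule, so its own levels here only describe the ranking. The floor of 2 UMIs also ties a low Ly6c2 CPM to deeper cells. The parts and the counts along them are thus given as a description only. Of 22 classical monocyte genes with at least 200 UMIs in the low and high parts together, 17 rose from part to part and 1 fell at each step, against 28.4% and 22.3% of all 1033 such genes. Hp was at 410, 888 and 1322 CPM from the low to the high part, C3 at 79.6, 174 and 251, and Cybb at 252, 470 and 545. Of 15 macrophage maturation genes 14 fell at each step and 0 rose, and of 8 heme and iron genes 5 fell and 2 rose. Apoe was at 11286, 7323 and 5636 CPM, Hmox1 at 2721, 1283 and 584, Fth1 at 18896, 10211 and 7125, and Pf4 at 1902, 1429 and 417. In T and B cells of the library Apoe was at 3482 and 8895 CPM, Hmox1 at 658 and 646, Fth1 at 4223 and 6605, and Pf4 at 616 and 475. The high part thus lay below both lymphocyte levels for Hmox1 and Pf4 and between them for Apoe, and the middle part lay between them for Apoe too. Of the 15 macrophage genes, 14, 8 and 5 were above both lymphocyte levels in the low, middle and high parts, and 4, 2 and 1 by over 2-fold. Of all 1033 genes, 679, 677 and 678 were above both, and 187, 174 and 175 by over 2-fold. In the high part most macrophage genes thus did not exceed both lymphocyte levels and are not read as expression. The high over low ratio was 1.69 (1.51 to 1.87) for Hp, -2.22 (-2.38 to -2.06) for Hmox1 and -2.19 (-2.38 to -2.00) for Pf4, and -2.28 and -2.17 for the last pair in core members. The median high over low ratio was 0.44 over the 22 monocyte genes, -0.995 over the 15 macrophage genes and 0.036 over the 1033. At least 2-fold higher in the high part were 4 of the 22 monocyte genes, against 1.06% of all, and at least 2-fold lower were 7 of the 15 macrophage genes and 4 of the 8 heme and iron genes, against 2.9%. In core members the counts were 4 of 22 monocyte genes higher, against 1.48% of all, and 6 of 15 macrophage and 4 of 8 heme and iron genes lower, against 2.65%. H2-Ab1 was at 799, 212 and 175 CPM. Neutrophil markers were ordered as Ly6c2 too in core members. The 20 markers summed to 1403, 2142 and 5565 CPM there, with S100a8, the most abundant, at 488, 804 and 2503 CPM, while Ly6g was at 0 in all and Camp, Ngp and Ltf held at most 4 UMIs each in any of the parts. The 12 progenitor markers summed to 62.6, 114 and 180 CPM, with Mpo at 0. Over all members neither sum had this order, with 5300, 7007 and 5126 CPM of neutrophil and 1793, 2089 and 751 CPM of progenitor markers. The part of such cells in the order of Hp was not tested.

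Proliferation genes summed to 1574, 1883 and 3234 CPM along the parts, and to 1216, 1390 and 2983 in core members. Their sum thus followed the order of Ly6c2. Of the 3 with at least 200 UMIs, 2 rose at each step in either set (28.4% of all genes in members). In members 1 fell at each step (22.3% of all genes), and in core members 0 did. Mki67 and Top2a, genes of dividing cells, were at 37.1, 37.2 and 125 CPM and 44.5, 42.8 and 107 CPM, so they were level between the low and middle parts and highest in the high part, and Mki67 had a ratio of 1.75 (1.16 to 2.37) there and 3.26 (2.28 to 4.38) in core members. Of 18 immediate early genes, 13 rose at each step and 0 fell, against 28.4% and 22.3% of all genes. In core members 12 of 18 rose. Their sum was 9051, 10505 and 10757 CPM along the parts, and the part of dissociation in this order was not tested. All 5 genes of MHC class II and costimulation with at least 200 UMIs fell at each step. Isg15 and Ccl8 had no such order. Isg15 was at 92.3, 70.4 and 101 CPM with a ratio of 0.12 (-0.37 to 0.61). Ccl8, a chemokine, was at 6.36, 182 and 4.87 CPM, high in the middle part alone. The number of cells that carried this sum is not given.

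**Figure D4:**
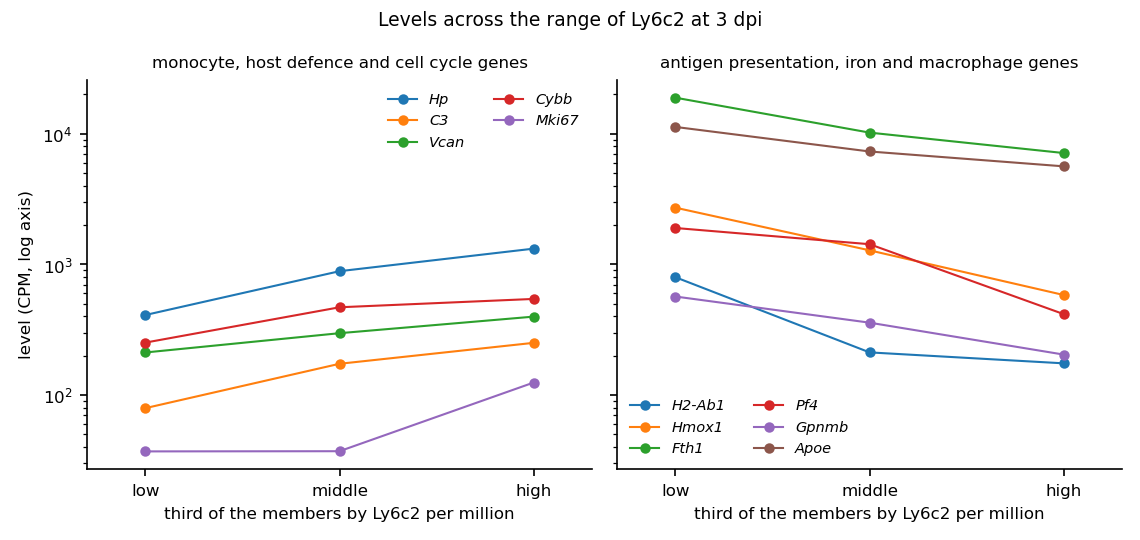
Levels in CPM (log axis) of named genes in the low, middle and high parts of the members by Ly6c2 CPM. Hp goes from 410 to 1322 CPM, Hmox1 from 2721 to 584 CPM, and Mki67 is higher in the high part alone (125 CPM).

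The same rule found 302 of 5736 cells in the standard sham library (5.26%, 4.70% to 5.87%), 40 of 2203 in the ActD sham (1.82%, 1.30% to 2.46%) and 923 of 10879 at 14 dpi (8.48%, 7.97% to 9.02%), of which 179, 20 and 671 were core members. Time, library, dissociation run and software version cannot be told apart, and the shares depend on UMIs of Ly6c2 per cell, which were lowest at 3 dpi. Over 6798 genes, members at 3 dpi had 381 at least 2-fold higher (5.6%) and 1178 at least 2-fold lower (17.3%) than cells of the rule at 14 dpi, with a median of -0.33. TMM scaling, which trims extreme genes, gave 481 and 852. Since granule gene cells were more frequent at 14 dpi, the values below are of core members, where 250 of 5017 genes were higher (4.98%) and 773 lower (15.4%). Core members of the libraries also differed in sex. Of those assigned, 9.15% were male in the standard sham, 33.3% in the ActD sham (15 assigned), 57.9% at 3 dpi and 49.1% at 14 dpi.

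Core members at 3 dpi had lower RNA of all 29 interferon response genes with at least 200 UMIs than those at 14 dpi, each by at least 2-fold (background 15.4%), with a median of -2.27. Isg15 was at 101 CPM in the standard sham, 495 in the ActD sham, 95.01 at 3 dpi and 611 at 14 dpi, and Irf7 at 118, 712, 81.9 and 575 CPM. The Isg15 level at 3 dpi was thus close to that of the sham library without ActD, and below both other libraries with ActD. Software version splits the libraries in the same way, with 3.0.1 for standard sham and 3 dpi and 3.1.0 for the others. Its part was not tested. T cells also differed, with 118 CPM of Isg15 at 3 dpi and 296 at 14 dpi. Of 18 proliferation genes, 16 were at least 2-fold lower at 3 dpi (median -2.18), with Mki67 at 245, 521, 38.3 and 237 CPM in the 4 libraries in the same order.

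Chemokine and macrophage genes were higher at 3 dpi than at 14 dpi, 8 of 11 and 14 of 21 by at least 2-fold (background 4.98%; medians 2.15 and 1.65). Cxcl2 was at 457, 47.2, 2105 and 99.1 CPM, Thbs1 at 1711, 42.5, 2018 and 191 CPM, and Hmox1 at 78.0, 87.3, 1817 and 71.4 CPM. Saa3, an acute phase apolipoprotein, was at 3.97, 200, 703 and 27.3 CPM. The level in lymphocytes moved the same way for several of these genes, and its part in the ratios was not tested. T cells had 5064 CPM of Spp1 at 3 dpi and 114 at 14 dpi, 616 and 3.52 CPM of Pf4, 658 and 4.39 CPM of Hmox1, and 511 and 18.2 CPM of Cxcl2. Pf4 had the highest ratio, 9.59 (8.75 to 10.59), and Spp1 5.02. Thbs1, with 190 CPM in T cells at 3 dpi, and Saa3, with 41.3, lay well above that level in core members.

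Among classical monocyte genes, 5 of 24 were at least 2-fold higher and 5 lower at 3 dpi (median -0.11), against 4.98% and 15.4% of all genes. Hp was at 1247, 1142, 818 and 901 CPM, close between 3 and 14 dpi (-0.14, -0.22 to -0.06). Chil3 was at 3076, 1370, 4104 and 816 CPM, so it was higher at 3 dpi (2.33, 2.28 to 2.38), while Ccr2 was lower, at 630, 1297, 433 and 1173 CPM (-1.44, -1.54 to -1.34). Of 18 immediate early genes, 9 were at least 2-fold higher at 3 dpi (background 4.98%) and 0 lower, with a list median of 1.17, and Fos was at 1611, 731, 1748 and 983 CPM. The 20 genes of the list summed in core members to 12519 CPM in the standard sham, 3663 in the ActD sham, 10487 at 3 dpi and 5210 at 14 dpi. In spite of ActD, the 3 dpi library thus lay near the sham library without it and above both others with it, as Thbs1 did, while Cxcl2 at 3 dpi was above all 3 other libraries. The standard sham and 3 dpi libraries also shared software version 3.0.1, and the ActD sham and 14 dpi libraries 3.1.0. The part of induction during dissociation or of software version in these levels was not tested. Oxidative phosphorylation genes had 0 of 26 beyond 2-fold (median -0.05).

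**Figure D5:**
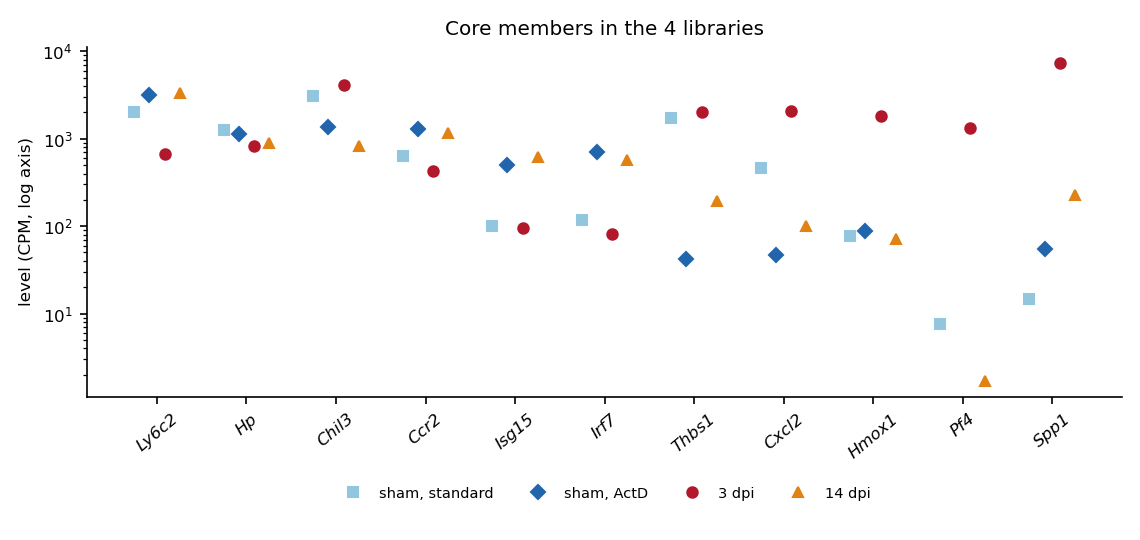
Levels in CPM (log axis) of named genes in core members of the 4 libraries. Isg15 stands at 95.01 CPM at 3 dpi and 611 CPM at 14 dpi, Hmox1 at 1817 and 71.4 CPM, and Pf4 of the ActD sham is at 0 and not drawn.

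All members together, which include the granule gene cells, had the neutrophil granule genes among the lowest ratios of 3 over 14 dpi. Ltf, lactoferrin, had 5 UMIs at 3 dpi and 12664 at 14 dpi, Ngp 62 and 54479, and Ly6g 0 and 543. This goes with the shares of cells with over 1% of UMIs from Camp, Ngp and Ltf, 0 of 239 at 3 dpi and 55 of 923 (5.96%) at 14 dpi. In core members, which leave such cells out, the ratios were still low, with -3.27 for Ltf, -3.98 for Ngp and -3.77 for Camp. Ifi44, an interferon response gene, had 1 UMI at 3 dpi and 286 at 14 dpi (-5.68, -10.99 to -3.20).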

How the data were processed

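The authors deposited, for each of the 4 libraries, counts of UMIs per gene and cell barcode in a sparse matrix, with no normalization. Per the labels' processing notes, Cell Ranger and mm10 were used, and by the file headers 2 libraries, standard sham and 3 dpi, came from software version 3.0.1 and the others from 3.1.0. The libraries held 60412094 (standard sham), 27447471 (ActD sham), 125270696 (3 dpi) and 129935880 UMIs (14 dpi) in 6827, 2439, 10763 and 11631 barcodes, of which 5736, 2203, 9528 and 10879 passed the filter. The members held 2284169 UMIs and the Ly6c2-negative cells 41496319. Some genes are not reported here. The members, the gene lists and the comparisons were chosen with earlier results of these data known.

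UMIs were summed over cells and scaled to CPM. Intervals are 95% and exact, by the Poisson distribution for levels, the conditional one for ratios and Clopper-Pearson for shares, and cover counting error only, and a count of 0 was read against a floor of 3 counts. Genes with at least 200 UMIs in both groups of cells together were compared, without the genes of the rule, and a 2-fold ratio counted as higher or lower. List medians used genes of 20 or more UMIs, after 0.5 UMIs were added to each sum. No p-value was computed, since each condition is 1 library. The script for the intervals of ratios was tested on simulated counts. T cells were taken by Cd3e with Cd3d or Cd3g, B cells by at least 2 UMIs of Cd79a and neutrophils by Cxcr2 and Csf3r, each without Csf1r. Core members were defined after seeing the data. Genes named were those of the rule, the markers, the 15 highest and lowest ratios with the same direction in male and female cells (10 each for 3 over 14 dpi), and from each of 32 lists the 2 highest and 2 lowest and genes of a known role. Of these, the text gives those with the most to show. Python 3.11.15 with numpy 2.4.6, scipy 1.17.1 and pandas 2.3.3 was used. Doublets were scored by the Scrublet method in scanpy 1.11.5, whose automatic threshold called 0 cells, so the highest scores were taken at 0.8% per 1000 cells. TMM factors came from edgeR 4.0.16 in R 4.3.3. The doublet caller of the study was not used here. Alternatives were other UMI limits of the rule, a required Csf1r, stricter cell filters, removed doublets, thinned cells, single sexes, subsets of the Ly6c2-negative cells by microglia genes and by the cap of the rule on a further gene, other minimum counts, TMM or median centring, and the mean over cells.

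The list medians of members over Ly6c2-negative cells not printed in the report were as follows. Non-classical monocyte genes had a median of 0.54, alternative activation genes -0.69, chemokine receptors 0.00, Fc receptors and complement 0.11, coagulation and fibrinolysis genes -0.10, antioxidant and NADPH oxidase genes -0.00 and proliferation genes 0.66 (0.11 in core members). Dendritic cell markers had 0.37, plasmacytoid dendritic cell markers 1.33, B cell markers -1.23, microglia markers -0.03, oligodendrocyte and neural markers -1.60, endothelial and fibroblast markers -2.11, and erythroid and platelet markers -0.76. Neutrophil markers had 1.05 (0.32 in core members), myeloid progenitor markers 3.43 (-0.05) and T and NK cell markers 1.94 (-0.47).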

Additional observations from a re-analysis of the deposited data

Results flagged for a closer look

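Ratios of members over Ly6c2-negative cells for 4 genes and 2 lists had the opposite sign at 14 dpi, and for the genes the intervals lay on opposite sides of 0. The differences between the times were not tested, since each time is 1 library. The Ly6c2-negative cells in the denominator were a different mix at 14 dpi, with microglia markers summing to 16433 CPM against 3357 at 3 dpi, macrophage maturation genes to 105715 against 67796, and endothelial and fibroblast markers to 405 against 65.1, and the part of that mix in the signs was not tested. F13a1, a chain of coagulation factor XIII, had a ratio of -0.10 at 3 dpi and 3.68 (3.54 to 3.83) at 14 dpi, and 3.86 in core members there. Lyz2, lysozyme, had -0.17 at 3 dpi and 0.53 (0.52 to 0.54) at 14 dpi. Il1b had 0.74 at 3 dpi and -0.21 (-0.32 to -0.10) at 14 dpi, but 0.66 in core members at 14 dpi. The 3 dpi signs of F13a1, Lyz2 and Il1b also changed with other choices of cells or scaling, given in the closing section on processing. The transcript Gm16104 rested on 1 UMI in members at 3 dpi (-3.54) and had 1.76 (0.49 to 3.31) at 14 dpi, and -1.30 in core members there. The median of the adhesion and migration genes was 0.40 at 3 dpi and -0.49 at 14 dpi. The median of the T and NK cell markers was 1.94 at 3 dpi, where 13 of 239 members carried at least 5 of them, and -1.62 at 14 dpi, where 5 of 923 did, and it was -0.47 in core members at 3 dpi.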

How the results depend on the processing

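Members and Ly6c2-negative cells come from 1 library, so every interval covers counting error only. Of 77 values of the summary results under alternatives, 53 stayed within their error or within 1.5 times and 24 did not. No paired analysis was possible because each condition is 1 library with no replicate. The cause of each difference below was not tested. With at least 1 UMI of Ly6c2 and Plac8 the share of members was 4.31%, the macrophage median -0.79 and the monocyte median 1.13. In that setting 264 genes were higher in members and 131 lower (3.00% and 1.49% of 8809), against 381 and 470 as reported. With at least 4 UMIs the share was 1.37% and the macrophage median -1.39. The share was 2.09% with Csf1r required and 1.70% when cells were thinned to 3000 UMIs first, which left out 2313 cells. Against cells with none of the 6 microglia genes, 94 genes were higher and 113 lower (2.03% and 2.44% of 4640), and the medians were -0.91 for macrophage and 0.89 for monocyte genes. Female cells alone gave 197 genes higher and 336 lower, which is 4.03% and 6.87% of 4888 against 4.38% and 5.4% of 8704, and a macrophage median of -1.48. A minimum of 50 UMIs gave 661 higher and 950 lower (6.02% and 8.66% of 10973), and 1000 UMIs gave 144 and 163 (3.24% and 3.67% of 4445). Against the Ly6c2-negative cells above the cap of the rule on a further gene 254 genes were lower and 312 higher (4.15% and 5.10% of 6120), and against those below it the macrophage median was -0.95. The monocyte median was 1.60 in cells of 1000 or more genes with mitochondrial UMIs up to 5%, and 1.15 as the mean over cells. Without the cells with granule or T and NK cell genes, a choice made after seeing the data, 250 genes were higher and 773 lower at 3 than at 14 dpi, which is 4.98% and 15.4% of 5017 against 5.6% and 17.3% of 6798.

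Of 742 ratios of named genes under alternatives, 385 stayed within their error, 340 moved beyond it with the same sign, and 17 changed sign. Mpo had -3.54 with stricter cells and -3.80 in core members, and Nkg7 -0.36 in core members, with 0.5 UMIs added to each sum. With at least 1 UMI of Ly6c2 and Plac8, Col1a1 had 4.02, Col1a2 4.48, Dcn 0.91, P4ha2 0.11 and H2-Ab1 0.27. Against cells with none of the 6 microglia genes Lyz2 had 0.31, F13a1 0.068 and Il1b -0.47. As the mean over cells Lyz2 had 0.18 and Il1b -0.093. F13a1 had 0.077 with at least 4 UMIs and 0.33 against cells below the cap. Against cells above the cap, Thbs1 had -0.37 and H2-Ab1 1.95. Depth limits the genes at 0 to 4 UMIs in members most.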
